A study of Bos taurus with 4 samples.

Results

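The transcripts described here encode the enzymes that shorten poly(A) tails and the BTG proteins that bind them, in the immature bovine oocyte. They come from 10 genes: the BTG family members BTG4, BTG1 and BTG2, the CCR4-NOT subunits CNOT1, CNOT6, CNOT6L, CNOT7 and CNOT8, and the separate deadenylases PAN2 and PARN. The array carried 14 probes with these symbols in the platform annotation, out of 43794 bovine probes. CNOT7 and CNOT6L had 3 probes each and every other gene had 1. The probes were found by gene symbol, with no threshold on a measured value.

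A poly(A) tail protects an mRNA and helps it to be translated, and deadenylases remove it. PAN2 works with PAN3 and trims long tails, and the CCR4-NOT complex shortens them further. CNOT1 is the scaffold of that complex, CNOT6 and CNOT6L are alternative catalytic subunits of the CCR4 type, and CNOT7 and CNOT8 are alternative catalytic subunits of the CAF1 type. PARN is a separate enzyme that binds the cap and acts on tails of selected RNAs. BTG proteins bind the CAF1-type subunits. In mouse oocytes, BTG4 and CNOT6L are known to be needed for the removal of maternal mRNAs around meiotic maturation, and BTG4 mRNA is held with little translation until meiosis resumes.

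RNA was parted by tail length from immature Holstein oocytes that were at the germinal vesicle stage, freed of cumulus cells and taken from slaughterhouse ovaries carried on ice. Each of the 4 arrays held RNA of a pool of 200 oocytes, depleted of ribosomal RNA and parted on beads that bind poly(A), so no value belongs to a single animal. The A150 fraction, eluted at 75 °C after a first elution at 42 °C, is labelled as tails of at least 150 nucleotides, and the A- fraction, not retained by the beads, as tails of at most 50. The dyes were swapped: arrays 1 and 2 carried the A150 RNA in Cy5, arrays 3 and 4 in Cy3. All oocytes were of 1 stage, so the comparison is between fractions of the same pool and not between treatments. A ratio below is log2 of normalized A150 signal over A- signal, so a negative value is a relatively higher signal in A-. In pooled oocytes, fewer cells with a transcript and less of it per cell cannot be told apart.

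The background level of a channel was set at 2 SD over the mean of its 153 negative-control spots, and a spot with a higher raw signal was taken as above background. By that level, 9.96% to 60.6% of bovine probes were above background in A150 and 22% to 48.7% in A-, and array 2 had the lowest share in A150. The label of the cells was checked with marker genes. Of 13 oocyte markers on the array, 13 were above background in some fraction on at least 3 arrays and 10 on all 4. Of 12 cumulus and granulosa markers, 5 were above background on at least 3 arrays, and 3 of these, STAR, PTX3 and GJA1, on all 4. STAR had a median of 7.96 times the level in A150 and 3.19 times in A-. PTX3 and GJA1 lay near the level, with medians of 1.14 and 1.26 in A150 and 0.988 and 1.13 in A-. FSHR, AMH, FOXL2 and HSD3B1 were above the level on no array. Of 4 blood markers, 4 were above it on at least 3 arrays and HBB on all 4, and of 4 stroma markers 0 were above it on at least 3. HBB too lay near the level, with medians of 0.974 in A150 and 1.04 in A-. The highest median among the blood markers was 1.91, of HBA in A150. Over all bovine probes, 44.4% were above background in some fraction on at least 3 arrays. The signal summed over a list, each marker divided by its channel's background level, ranged over the arrays from 64.5 to 440 for the oocyte markers, from 12.7 to 46.3 for cumulus and granulosa, from 4.09 to 11.3 for blood and from 3.19 to 3.9 for stroma. These sums hold different probes and different numbers of markers, so their sizes do not measure shares of cells, and the part of other cells in the results below was not tested.

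Probes were tested if at least 1 fraction was above background on at least 3 arrays. This kept 9 of the 14 probes, from 7 genes, against 44.4% of all bovine probes. BTG2, CNOT6, PAN2 and the other 2 probes of CNOT6L were not kept. Only 4 of the 14 exceeded the level in A150 and in A- on each of the 4 arrays, against 4.64% of all bovine probes: the BTG4 probe, the CNOT8 probe and 2 of the CNOT7 probes. No member spot was saturated.

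**Figure D1:**
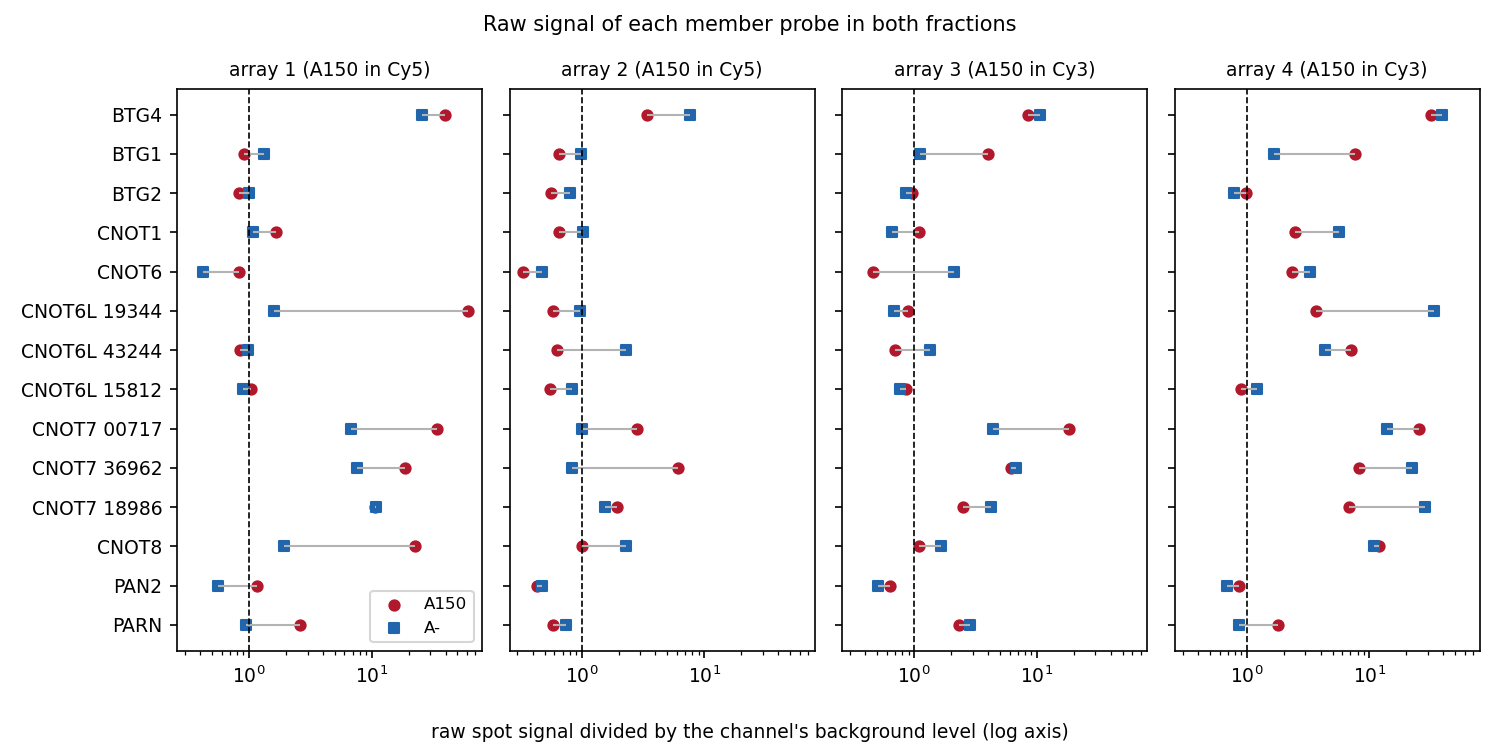
Raw spot signal of each member probe divided by the background level of its channel (log axis), in A150 (red circles) and A- (blue squares), with 1 panel per array; the dashed line is the background level. BTG4 lies to the right of the line in both fractions on all 4 arrays, from 3.39 to 39.8 in A150 and from 7.68 to 39.2 in A-, and BTG2 lies to its left in both.

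BTG4 was the only BTG transcript above background in both fractions on every array. Its raw signal in A- was 30890, 21295, 17151 and 24750 on arrays 1 to 4, and in A150 it was 13138, 8353, 9076 and 15477. The A- spot was the brighter on every array, in both dye orientations. The background level was also higher in A- on every array, so raw signals of the 2 channels are not on 1 scale. Divided by that level, the signal on array 1 was 39.8 in A150 and 25.8 in A-, the reverse order. On arrays 2 to 4 the A- value stayed the higher. After normalization the log2 ratios were -1.62, -1.74, -1.45 and -0.71, with a mean of -1.38 ± 0.46 (SD, n = 4), or 2.60-fold higher in A-. The sign was the same on all arrays, and array 4 stood closest to 0. With A150 in Cy5 the mean was -1.68 and with A150 in Cy3 it was -1.08. In limma's fit across all 19453 kept probes the unadjusted p was 0.00435, the 95% interval ran from -2.10 to -0.66, and the adjusted p was 0.128, which does not pass the threshold of 0.05. The size depended on the scaling: with median centring in place of loess the mean was -0.73. Without any normalization within arrays it was -1.07, or -0.64 relative to the median of the kept probes, which itself stood at -0.42 there.

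BTG1, a related antiproliferative adaptor, gave no direction. Its ratios were -0.70, -0.095, 1.37 and 1.68 on arrays 1 to 4, with a mean of 0.56 ± 1.15 (SD, n = 4, limma adjusted p = 0.715). The sign followed the dyes, with a mean of -0.40 where A150 was in Cy5 and 1.53 where it was in Cy3. Such a split by dye orientation was seen in 1 of the 9 kept member probes and in 17.1% of all kept probes. With the dye orientation as a term in limma's fit, the dye effect of the BTG1 probe had an unadjusted p of 0.0171 and an adjusted p of 0.563. Its A150 signal exceeded the background level on arrays 3 and 4 alone, at 4.004 and 7.60 times the level, and its A- signal on 3 arrays, at 1.12 to 1.68 times the level.

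BTG2, the third BTG gene with a probe, was not above background in either fraction on any array. Its raw signals reached at most 0.98 times the level in A150 and 0.999 times in A-. The ratios of -0.20, -0.13, -0.21 and -0.094 therefore compare signals that cannot be set apart from the negative controls, and no fold is given.

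CNOT1, the scaffold of CCR4-NOT, had ratios of 0.83, -0.51, 1.31 and -2.18 on arrays 1 to 4. The mean was -0.14 ± 1.57 (SD, n = 4, limma adjusted p = 0.953). The arrays disagreed in sign within each dye orientation, and the mean was 0.54 without array 4. Its signal was low, between 0.66 and 5.65 times the background level in either fraction.

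The CCR4-type catalytic subunits were measured weakly. The CNOT6 probe exceeded the background level in A150 on array 4 alone and in A- on arrays 3 and 4, so it was not tested. Its ratios were 1.02, -0.36, -4.91 and -1.46. The lowest value, on array 3, paired a raw signal of 3405 in A- with 499 in A150.

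The 3 probes of CNOT6L did not give the same pattern. The only kept probe, EMBV3_43244, had ratios of -0.11, -3.14, -2.89 and -0.0062, with a mean of -1.54 ± 1.71 (SD, n = 4, limma adjusted p = 0.436). The ratio was negative on all 4 arrays, but 2 of them were close to 0 and 2 near -3. Both fractions were below background on array 1 and both above it on array 4, where the raw signals were 3394 in A150 and 2760 in A-. On arrays 2 and 3 the A150 signal was 0.633 and 0.702 times the level, so the probe passed the filter through A-. Without background correction the mean was -0.74.

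The second CNOT6L probe, EMBV3_19344, had the widest range of any member probe. On array 1 its raw signal was 20155 in A150 against 1908 in A-, a ratio of 3.77. On array 4 it was 1769 in A150 against 21064 in A-, a ratio of -3.997. The bright spot was the Cy5 spot in both cases, and on arrays 2 and 3 both fractions were below background. The last CNOT6L probe, EMBV3_15812, never exceeded 1.22 times the background level in either fraction, and its ratios ran from -1.44 to 0.71. CNOT6L thus had no ratio that its probes shared.

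**Figure D2:**
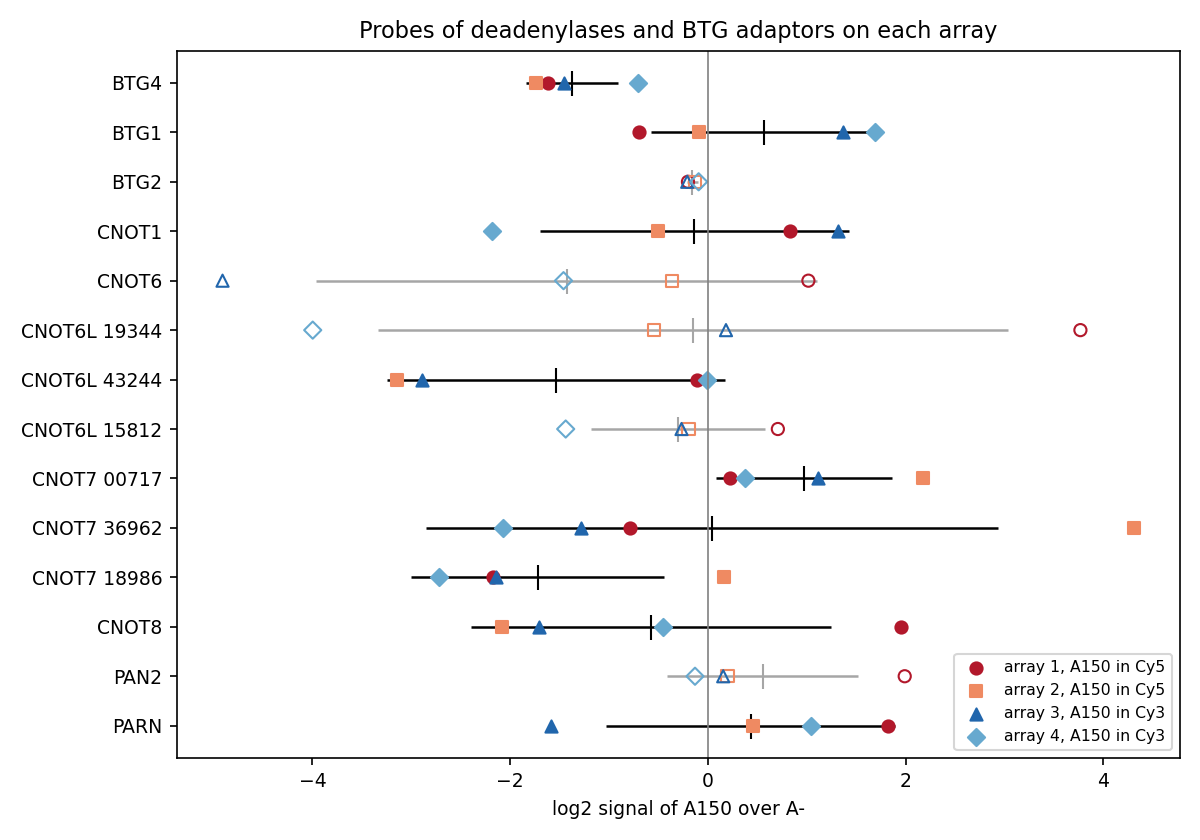
Log2 ratio of A150 over A- for each of the 14 probes on each array (symbols by array, red tones where A150 was in Cy5 and blue tones where it was in Cy3), with the mean as a tick and the SD over 4 arrays as a line; open symbols and grey lines mark the 5 probes that were not tested. BTG4 lies left of 0 on all arrays, from -1.74 to -0.71, and the BTG1 values split by dye.

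CNOT7, the CAF1-type nuclease, was the gene with the most measured probes, and they lay on both sides of 0. The brightest probe, EMBV3_00717, had ratios of 0.22, 2.17, 1.11 and 0.37. Its mean was 0.97 ± 0.89 (SD, n = 4), or 1.96-fold higher in A150, with a limma adjusted p of 0.404. Its raw A150 signal was above its A- signal on all 4 arrays, for example 19876 against 7076 on array 3. On array 2, which had the largest ratio, the A- signal was 1.01 times the background level. The mean of this probe was 0.57 without array 2 and 1.65 with median centring.

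The CNOT7 probe EMBV3_18986 pointed the other way on 3 arrays. Its ratios were -2.18, 0.16, -2.14 and -2.72, with a mean of -1.72 ± 1.28 (SD, n = 4), or 3.29-fold higher in A-. In limma's fit its unadjusted p was 0.0233 and its adjusted p 0.265. On array 2, the exception, both fractions were between 1.54 and 1.94 times the background level. Without array 2 the mean was -2.35, and with median centring of all 4 arrays it was -0.995.

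The last CNOT7 probe, EMBV3_36962, had ratios of -0.79, 4.31, -1.28 and -2.07, and a mean of 0.044 ± 2.89 (SD, n = 4, limma adjusted p = 0.992). Array 2 stood on the opposite side of 0 from the other 3, with raw signals of 14980 in A150 and 2304 in A-. The A- signal there was 0.83 times the background level, so the 4.31 has a denominator that was not above background. Without array 2 the mean was -1.38, with a limma adjusted p of 0.26, and over all alternatives the adjusted p ran from 0.26 to 0.995. Array 2 thus set the sign of this probe's mean.

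The disagreement between CNOT7 probes was regular for 1 pair. The ratio of EMBV3_00717 exceeded that of EMBV3_18986 by 2.40, 2.01, 3.25 and 3.10 on arrays 1 to 4, a mean difference of 2.69 ± 0.58 (SD, n = 4). This pair was singled out after its values were seen and is given without a test. The range of the CNOT7 probe means was wider than in 91.2% of the 375 genes with 3 kept probes, whose median range was 1.19. CNOT7 therefore had no single ratio here, and which transcript form each probe detects was not analysed here.

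CNOT8, the paralog of CNOT7, exceeded the level in A150 and in A- on every array. On arrays 2 and 3 its A150 signal did so narrowly, at 1.001 and 1.09 times the level. Its ratios of 1.95, -2.09, -1.70 and -0.46 did not share a sign. The mean was -0.57 ± 1.82 (SD, n = 4, limma adjusted p = 0.811). Array 1 alone was positive, with raw signals of 7453 in A150 and 2288 in A-. With median centring the mean was -0.029, which lay 0.054 above the median of the kept probes.

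Outside CCR4-NOT, neither deadenylase had a settled ratio. The PARN probe had ratios of 1.82, 0.46, -1.59 and 1.04, with a mean of 0.43 ± 1.46 (SD, n = 4, limma adjusted p = 0.826). Its A150 signal exceeded the level on 3 arrays and its A- signal on array 3 alone, so the probe passed the filter through A150. Array 3, where both fractions exceeded the level, had the only negative ratio. The mean of the PARN probe was -0.031 without array 1. PAN2 was not above background in A- on any array and was above it in A150 on array 1 alone, at 1.17 times the level. Its ratios were 1.99, 0.20, 0.15 and -0.13. With A150 above background on 1 array alone, no fold is given.

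Across the 9 kept member probes, limma called 0 toward A150 and 0 toward A- at an adjusted p under 0.05. Over all kept probes the same fit called 0% toward A150 and 0.0617% toward A-. Without adjustment, at a p under 0.05, 0 member probes lay toward A150, against 8.03% of all kept probes. By the same rule 2 were higher in A-, against 5.45% of all kept probes, namely the BTG4 probe and CNOT7 EMBV3_18986. Which members passed this unadjusted rule depended on the scaling. With median centring CNOT7 EMBV3_00717 passed it toward A150, at 1.65 (limma unadjusted p = 0.0149). CNOT7 EMBV3_18986 did not pass it there, at -0.995 (limma unadjusted p = 0.166). The ratio kept its sign on all 4 arrays in 3 of the 9, against 22.1% of all kept probes. Of these, 1 was positive throughout, CNOT7 EMBV3_00717, against 12% of kept probes. The other 2 were negative throughout, BTG4 and CNOT6L EMBV3_43244, against 10.1%. The CNOT6L probe was above background in A150 on array 4 alone, so its sign rests partly on dim A150 signals. The mean ratio was above 0 in 4 of the 9, against 48.2% of kept probes, and the median of the probe means was -0.14, against -0.022 over all kept probes. With 9 probes these shares are descriptions, and they do not set the list apart from other probes. When the fit was restricted to the 2030 probes that exceeded the level in A150 and in A- on every array, limma called 0 of the 4 member probes in either direction, against 5.71% toward A150 and 6.31% toward A-. There BTG4 had an adjusted p of 0.0809 and CNOT7 EMBV3_18986 one of 0.0852, the lowest for each over the alternatives tried, which reached 0.368 and 0.554. At an unadjusted p under 0.05 these 2 lay toward A-, against 12.4% of the restricted set, and 0 toward A150, against 17.4%.

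The precision differed widely among members. The 95% interval of limma's fit reached 0.72 to either side of the mean for BTG4, the narrowest of the 9, and 2.89 for CNOT7 EMBV3_36962, the widest, with a median of 1.54. The SD over arrays of BTG4 was larger than that of 28.3% of kept probes, and that of CNOT7 EMBV3_36962 larger than that of 97.6%. For comparison, the smallest mean among the 12 probes of the whole array that passed the threshold was 3.36 in size. It was 1.57 among the 244 probes called in the fit restricted to probes above background throughout, and 2.01 among the 655 called without normalization within arrays. In these 3 fits, 0 of the called probes had a mean as small as that of BTG4 in the same fit.

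Paralogs were compared within arrays. Of 6 pairs laid out for comparison, 2 had a kept probe for both genes. After loess, BTG4 lay below BTG1 on every array, with differences of -0.92, -1.64, -2.82 and -2.39 and a mean difference of -1.94 ± 0.84 (SD, n = 4). The exact two-sided sign-flip permutation test gave p = 0.13, the smallest that 4 arrays allow, and 0.25 after Benjamini-Hochberg adjustment over the 2 pairs. BTG1 was not above background in either fraction on array 2, nor in A150 on array 1, so those 2 differences rest on a dim probe. Without normalization within arrays the differences were 0.83, -0.72, -2.83 and -2.78, with a mean of -1.37 ± 1.77 (SD, n = 4) and an exact permutation p of 0.375, so the shared sign depended on the normalization. The brightest CNOT7 probe differed from CNOT8 by -1.73, 4.26, 2.81 and 0.83, a mean of 1.54 ± 2.59 (SD, n = 4) with an exact permutation p of 0.375. These comparisons are of ratios, not of the levels of the transcripts.

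The pattern of BTG4 over the 4 arrays was then set against the brightest kept probe of each of 7794 other named genes, by Euclidean distance between the 4 log2 ratios. The nearest was PDE3A, which encodes the phosphodiesterase that degrades cAMP in the oocyte, at a distance of 0.25, with ratios of -1.83, -1.73, -1.58 and -0.76. SERHL2 followed at 0.44, with a mean of -1.26 ± 0.27, and FBXL14, an F-box protein gene, at 0.48, with a mean of -1.40 ± 0.37. LGALS4, a galectin gene, and LOC787289 stood at 0.76 and 0.80. None of the 5 passed limma's threshold, the adjusted p running from 0.115 to 0.239. Second kept probes of SERHL2 and LGALS4 had means of 0.0067 and 0.78, and PDE3A, FBXL14 and LOC787289 had 1 kept probe each. The likeness thus rests on 1 probe for every gene. PDE3A and LGALS4 were above background in A150 on 3 arrays.

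Genes that work with these enzymes were described from lists, using the brightest kept probe of each gene. Of the other subunits of CCR4-NOT and PAN2-PAN3, 3 of the 7 on the array were kept, and 0 passed limma's threshold in either direction. Over all 7795 genes with a kept probe, 0% passed toward A150 and 0.0257% toward A-, and 50.6% had a positive mean. CNOT9, a docking subunit for RNA-binding proteins, stood at 1.13 ± 0.99 (SD, n = 4, limma adjusted p = 0.369), but its other kept probes stood at 0.45 and -0.89. The probe at 1.13 was above background in A150 on 3 arrays and in A- on 1. CNOT2, a structural subunit, stood at 0.67 ± 1.98 (SD, n = 4, limma adjusted p = 0.793), with its other kept probes at -2.66, -1.21 and -0.88. Those other probes had limma adjusted p of 0.176, 0.629 and 0.531. Probes of these subunits therefore disagreed in sign, as those of CNOT7 did.

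Among 6 genes on the array listed as other deadenylases or their relatives, 3 were kept, all with a negative mean, and 0 passed. ANGEL2, a relative of the CCR4-type enzymes, stood at -1.95 ± 1.96 (SD, n = 4, limma adjusted p = 0.382), and its other kept probe stood at -2.45 ± 1.53 with an adjusted p of 0.186. TOE1, a nuclear deadenylase that acts on small nuclear RNAs, stood at -0.74 ± 0.71. Of 3 other BTG and TOB genes, TOB1 alone was kept, at 0.31 ± 1.75. None of these values exceeded its spread enough to be called.

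Of 16 recruiters on the array, the RNA-binding proteins and Argonaute partners that bring deadenylases to mRNAs, 10 were kept, 3 with a positive and 7 with a negative mean. The median was -0.13, against 0.0099 over all genes with a kept probe. PUM2, a Pumilio repressor, stood at -1.10 ± 0.23 (SD, n = 4) and exceeded the level in A150 and in A- on every array, with a limma adjusted p of 0.14. It was the only recruiter with an unadjusted p under 0.05, a share of 10% against 4.25% of all genes toward A-. YTHDF2, a reader of methylated adenosine, stood at -0.33 ± 0.22. On the other side were CELF1, which binds GU-rich sites, at 0.55 ± 1.05, and ZFP36L1, which binds AU-rich sites, at 0.31 ± 0.78. The other kept probe of ZFP36L1 stood at -0.20 ± 0.27, so the gene had no single side.

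Decapping and decay factors, which act after deadenylation, had 18 kept genes of 30 on the array. A positive mean was found in 12 and a negative mean in 6, and the median was 0.52. Limma called 0 in either direction. At an unadjusted p under 0.05, 6 genes, or 33.3%, lay toward A150, against 9.9% of all genes, and 1, or 5.56%, lay toward A-, against 4.25%. Of the 6, LSM5 and LSM7 exceeded the level in both fractions on every array, and the other 4 were below it in A- on at least 1 array. Those 4 could pass the filter through A150, so the share is a description and supports no statement on the list. LSM5 and LSM7 are named here after their values were seen. LSM2, a subunit of the LSM ring that binds shortened tails, stood at 2.06 ± 0.62 (SD, n = 4, limma adjusted p = 0.0946), above background in A- on 2 arrays. EXOSC9, a subunit of the exosome, stood at 1.52 ± 0.67 (adjusted p = 0.145). DDX6, a helicase of mRNA storage and decapping, stood at -2.51 ± 1.62 (adjusted p = 0.195) and was above background in A150 on 2 arrays, and DCP1A, a decapping subunit, stood at -0.86 ± 1.34.

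**Figure D3:**
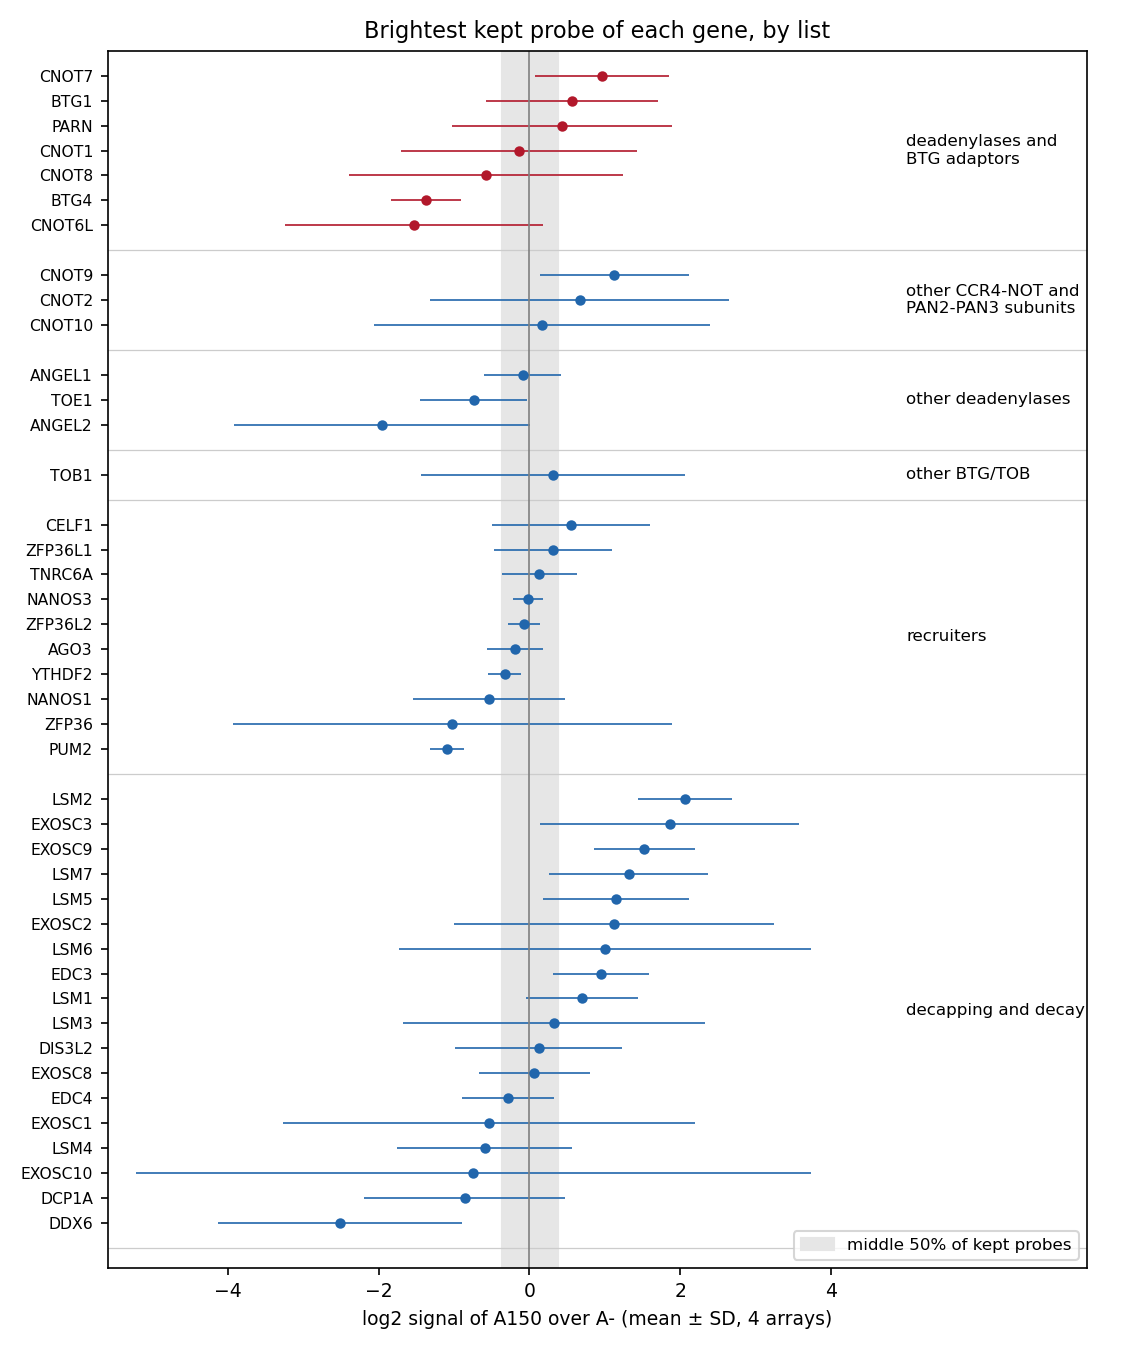
Mean log2 ratio of A150 over A- with its SD over 4 arrays for the brightest kept probe of each gene, for the deadenylases and BTG adaptors (red) and the lists of partner genes (blue); the grey band holds the middle 50% of all kept probes, from -0.37 to 0.37. The 7 member genes span -1.54 to 0.97, and the decay factors span -2.51 for DDX6 to 2.06 for LSM2.

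The ratios of the authors' deposited log2 table were set beside these values for the members. There BTG4 stood at -1.91, -1.77, -1.27 and -0.59, a mean of -1.39 ± 0.60 (SD, n = 4), and again had 1 sign on all arrays. CNOT7 EMBV3_00717 and EMBV3_18986 again lay on opposite sides, at 0.78 ± 0.69 and -1.47 ± 1.04. In that table limma called 0 member probes in either direction, the lowest adjusted p among them being 0.163.

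**Figure D4:**
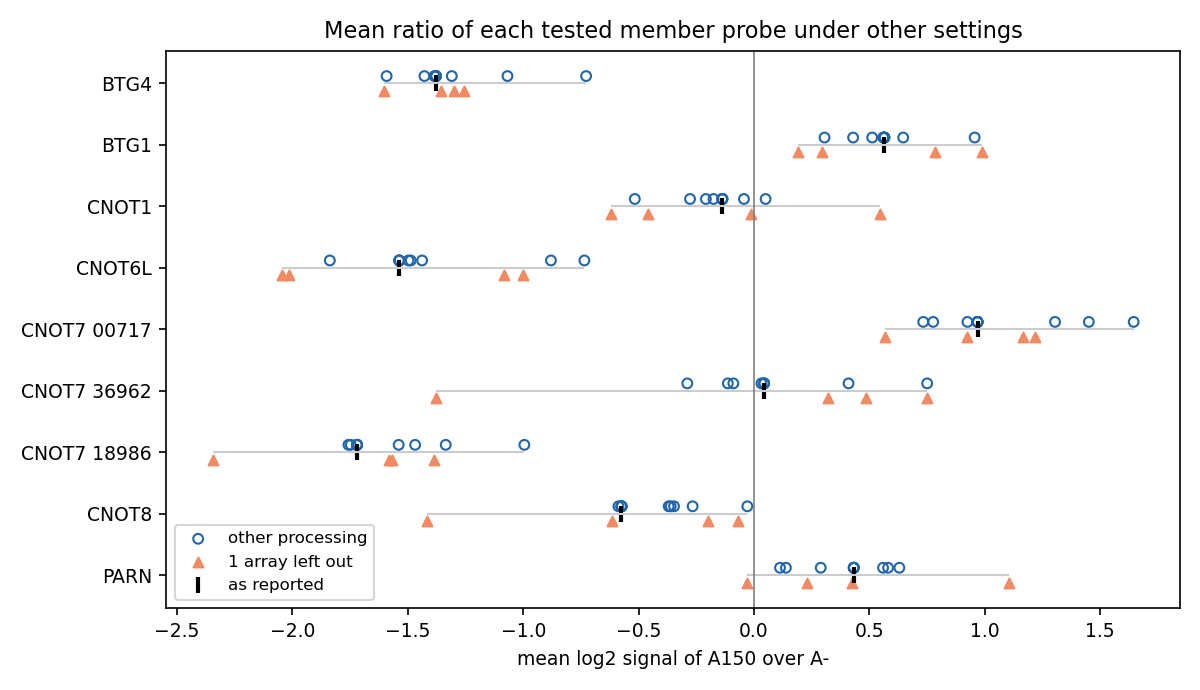
Mean log2 ratio of A150 over A- of the 9 tested member probes as reported (black ticks), under other processing (blue circles) and with 1 array left out (orange triangles). BTG4 stays below 0 throughout, from -1.60 to -0.73, and CNOT7 EMBV3_36962 reaches from -1.38 to 0.75.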

How the data were processed

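Per the labels' protocols, the RNA of each fraction went through WT-Ovation One-Direct amplification and Universal Linkage System labelling. The deposited scanner files hold spot intensity and local background intensity in Cy3 and Cy5, per the file headers, without subtraction. No source used here gives the scanner, image software or array build, so no coordinates are printed. The authors' deposited series table holds log2 ratios. Its columns correlated at 0.996 to 0.999 with unsubtracted loess ratios of A150 over A-, which fixes the direction, and slopes of 0.84 to 1.22 leave the exact scale of each array unknown.

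Intensities were corrected with normexp (offset 50) and normalized by loess within arrays, with control spots at weight 0, in limma 3.58.1 under R 4.3.3. Arrays 3 and 4 were turned. Ratios were tested against 0 with lmFit and eBayes and adjusted by Benjamini-Hochberg over 19453 kept probes. The fit was checked on simulated data. The 22 unnamed summary rows of each file were dropped. Alternatives changed the background correction, scaling, spot summary, filter, dye term, pairing, source of ratios and arrays used. The p-values cover the joint spread of pools and arrays, and the number of arrays limits precision.

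The members and lists were chosen with earlier results of these data known. Named genes were all member probes, on each side the 2 genes of each list with the smallest p, and the 5 genes nearest to BTG4. Symbols came from the platform annotation, updated through RefSeq synonyms (assembly ARS-UCD2.0). Sequences of the probes and members were not analysed here.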

Additional observations from a re-analysis of the deposited data

Results flagged for a closer look

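Among the 14 member probes, each with 4 arrays, the PAN2 probe on array 1 stood apart from the others, at a log2 ratio of 1.99 against 0.20, 0.15 and -0.13. Its gap to the nearest array, divided by the whole range, was 0.845, above the 95% critical value of Dixon's test for 4 samples. Chance marks about 1 in 20 such groups. On array 1 the raw A150 signal was 1.17 times the background level and the A- signal 0.563 times, and the part of background in the value was not tested.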

How the results depend on the processing

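Over 15 alternatives, limma called 0 member probes in either direction, with lowest adjusted p among members from 0.0809 to 0.368. Of 128 recomputed member ratios, 121 kept their side of 0 and 7 changed it, all of means under 0.5 in size. CNOT7 EMBV3_36962 was -0.29 without background correction, -0.0896 with spot medians, -0.11 in the deposited ratios, and -1.38 without array 2 to 0.75 without array 4. CNOT1 was 0.0501 with spot medians, and -0.62 without array 3 to 0.54 without array 4. PARN was -0.0309 without array 1 to 1.11 without array 3. BTG4 ranged from -0.73 to -1.60 with adjusted p from 0.0809 to 0.368. The members' median was -0.98 for the 4 probes that exceeded the level in each fraction of every array (fewer probes enter), and -0.46 to 0.19 with 1 array left out. The BTG4 minus BTG1 difference was -2.28 to -1.65 with 1 array left out, and CNOT7 minus CNOT8 was 0.64 to 2.63; without normalization within arrays they were -1.37 and 1.67, and the first was positive on array 1. The cause of the other changes was not tested. Each ratio already pairs the fractions of a pool, so the main fit is the paired analysis. Single channels without that pairing left every member uncalled. Dim spots limit 10 of the 14 probes, which were below background in some fraction on at least 1 array.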

Other observations

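The opposed values of CNOT6L EMBV3_19344 on arrays 1 and 4, both bright in Cy5, were shared by other probes. Over all 43794 bovine probes, 58 had a log2 ratio of at least 3 on array 1 and of at most -3 on array 4, which is the Cy5 side on both. The Cy3 side on both arrays held 20 probes, the A150 side 51 and the A- side 216. These counts are values of the whole array, and what sets them was not tested.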
